A study of Drosophila subpalustris with 2 samples.

Results

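The sixth block of gene models in the draft annotation of Drosophila subpalustris was described from polyadenylated RNA of whole adult flies. The deposited tables list 17716 gene models, each known only by a locus tag. In file order the tag numbers fall 6 times, which divides the list into 7 blocks, and block 6 holds 3038 models (17.1% of all). No measured value entered that division. Blocks 1 to 4, with 13119 models, were set beside it. The data comprised 2 libraries that formed 1 group, called replicates 1 and 2 by the submitters, each from a separate pool of 10 to 20 flies. Both pools mixed males and females of the species, kept as stocks on cornmeal, sucrose and yeast medium at room temperature. No treatment, allele or age is given for the flies, and neither is the proportion of the sexes in a pool. A whole-body pool averages every tissue, and both libraries come from pooled animals.

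Genes of Drosophila lie on chromosome arms whose gene content is largely conserved between species, the Muller elements, which include a very small dot element. Along an arm, genes with related sequence often lie next to each other as tandem copies, and genes used in few cells or only in embryos or larvae can leave few reads in whole adults. The tables name no chromosome, gene or protein, so no block was assigned to an arm and no model to a function. The RNA reads also served as evidence for predicting the models, per the submitters' series description, so a model with reads is not an independent check of that model.

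Assigned sense counts, that is reads counted on the annotated strand of a model, summed to 26141490 in replicate 1 and 25544996 in replicate 2. These were 61.7% and 58.8% of the reads. A count of 0 allows up to 3 counts, or 0.115 CPM (counts per 1e6 assigned sense counts) in replicate 1 and 0.117 CPM in replicate 2. Such limits, and the intervals given here, cover counting error only. Models are not replicates, and the design has 1 group, so differences between blocks are given as values in each library, with no test.

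Block 6 carried a smaller share of the counts than of the models. Its share of the sense counts was 14.0% in replicate 1, with an exact binomial interval (95%) of 14.03 to 14.06. In replicate 2 it was 13.5%, with an interval of 13.53 to 13.56. The mean was 13.8% ± 0.4 (SD, n = 2), against 17.1% of the models. Blocks 1 to 4 held 84.2% and 84.6% of the counts with 74.1% of the models. The median model of block 6 had 7.69 CPM in replicate 1 and 4.11 CPM in replicate 2. In blocks 1 to 4 the median was 10.9 CPM in replicate 1 and 7.12 CPM in replicate 2. The ratio of these medians, block 6 over blocks 1 to 4, was 0.703 in replicate 1 and 0.577 in replicate 2. Each library placed the median of block 6 below that of every one of blocks 1 to 4, the lowest of which were 9.89 CPM in replicate 1 and 6.30 CPM in replicate 2. CPM was not divided by model length, so a lower median means fewer reads per model. In whole-body RNA, fewer cells of a type and less RNA per cell cannot be told apart.

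Block 6 had smaller shares than blocks 1 to 4 in the classes from 10 CPM up, larger shares below 1 CPM and a nearly equal share between. Models of 100 to 1000 CPM, by the mean of the libraries, made up 4.94% of block 6 (150 models) and 7.16% of blocks 1 to 4. Those of 10 to 100 CPM made up 36.3% and 41.1%, and those of 1 to 10 CPM 25.05% and 25.5%. Models above 0 and below 1 CPM took 20.6% of block 6 and 17.2% of blocks 1 to 4. Among detected models, those with at least 10 sense counts in each library, the medians were closer. They were 17.1 and 10.4 CPM in block 6, against 18.9 and 13.1 CPM in blocks 1 to 4.

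**Figure D1:**
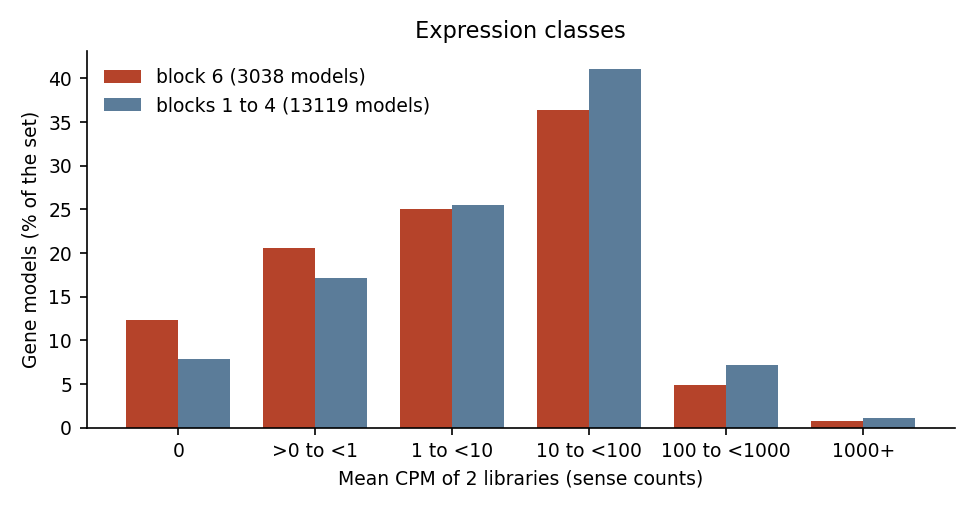
Share of the gene models (vertical axis, percent of the set) in each class of mean CPM over the 2 libraries (horizontal axis), for block 6 and for blocks 1 to 4 pooled. Block 6 has the larger shares at 0 CPM (12.3% against 7.87%) and below 1 CPM, and the smaller shares in every class from 10 CPM up.

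The counts of block 6 were concentrated in few models. Its 10 most abundant models held 24.9% of the block's counts in replicate 1 and 33.8% in replicate 2. To reach 50% of the block's counts took 49 models in replicate 1 and 22 in replicate 2. These were 1.61% and 0.724% of the block, against 1.69% and 0.922% of models for blocks 1 to 4. Models of 1000 CPM or more numbered 23 in block 6 (0.757%) and 151 in blocks 1 to 4 (1.15%).

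The most abundant model of block 6 was ACLKA7_011788, at 8682 CPM in replicate 1 and 14525 CPM in replicate 2; its mean was 11604 ± 4131 CPM (SD, n = 2). It alone held 6.18% and 10.7% of the block's counts. Next came ACLKA7_005862, with 5183 CPM in replicate 1 and 3751 in replicate 2, and ACLKA7_001587 with 3972 and 3723 CPM. ACLKA7_011788 stood above the others in both libraries. The order below it was not shared by the libraries, since ACLKA7_006720 had 2766 CPM in replicate 1 and 4188 CPM in replicate 2, and ACLKA7_006008 had 2224 and 4072 CPM. The remaining 5 of the 10 were ACLKA7_005856, ACLKA7_005706, ACLKA7_006976, ACLKA7_001667 and ACLKA7_005721, with means between 2279 and 3045 CPM. Of the 10, 7 had more CPM in replicate 2, and all 10 were higher there when trimmed means of M-values (TMM) set the scale. Antisense counts of these models were at most 1676 in a library.

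Within block 6 the tags rise in 6 stretches without a gap, of 65, 95, 434, 2, 1905 and 537 models in file order. Each of blocks 1 to 4 has 2 or 3 such stretches. All 6 stretches of block 6, and 6 of the 9 of blocks 1 to 4, are flanked in tag number on both sides by models of block 7, in which 61.6% of models had no sense count. The stretches differed widely, and the longest resembled its counterparts elsewhere in median level, though not in mean level. Stretch 5, from ACLKA7_005692 to ACLKA7_007596, had a median of 11.6 CPM in replicate 1 and 7.05 CPM in replicate 2. In the longest stretches of blocks 1 to 4 the pooled medians were 11.6 and 7.52 CPM, and the single stretches ranged over 10.3 to 14.0 CPM and 6.58 to 9.79 CPM. With the comparison limited to these longest stretches, the ratio of the medians was 0.997 in replicate 1 and 0.937 in replicate 2. The means stayed apart, at 51.4 and 48.5 CPM in stretch 5 against 66.5 and 66.9 CPM in the longest stretches of blocks 1 to 4. Stretch 5 held 9.78% and 9.24% of all sense counts with 10.8% of the models. For the longest stretches of blocks 1 to 4 these were 80.7% and 81.2% of the counts with 68.6% of the models.

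The other 5 stretches of block 6, 1133 models together, had a median of 1.72 CPM in replicate 1 and 0.744 CPM in replicate 2. Blocks 1 to 4 have 970 models outside their longest stretches, with medians of 4.38 and 2.74 CPM. Block 6 thus has 37.3% of its models in shorter stretches, against 7.39% for blocks 1 to 4. The division into stretches was made after the values were seen, from the tag numbers alone.

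Detection followed the same division. In block 6, 2112 models (69.5%) were detected, against 10054 (76.6%) in blocks 1 to 4, where the single blocks ranged over 74.3% to 80.0%. Over all 17716 models the share was 69.4%, which includes block 7 with 3.28%. Per library, 2227 models of block 6 reached 10 counts in replicate 1 and 2127 in replicate 2. Stretch 5 had 1499 of 1905 models detected (78.7%), within the range of the longest stretches of blocks 1 to 4 (75.3% to 80.6%). Stretch 6 had 326 of 537 (60.7%), stretch 3 had 227 of 434 (52.3%), stretch 1 had 45 of 65 (69.2%) and stretch 2 had 13 of 95 (13.7%). Both models of stretch 4 were detected: ACLKA7_005508 had 661 counts in replicate 1 and 590 in replicate 2, and ACLKA7_005509 had 122 and 166.

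**Figure D2:**
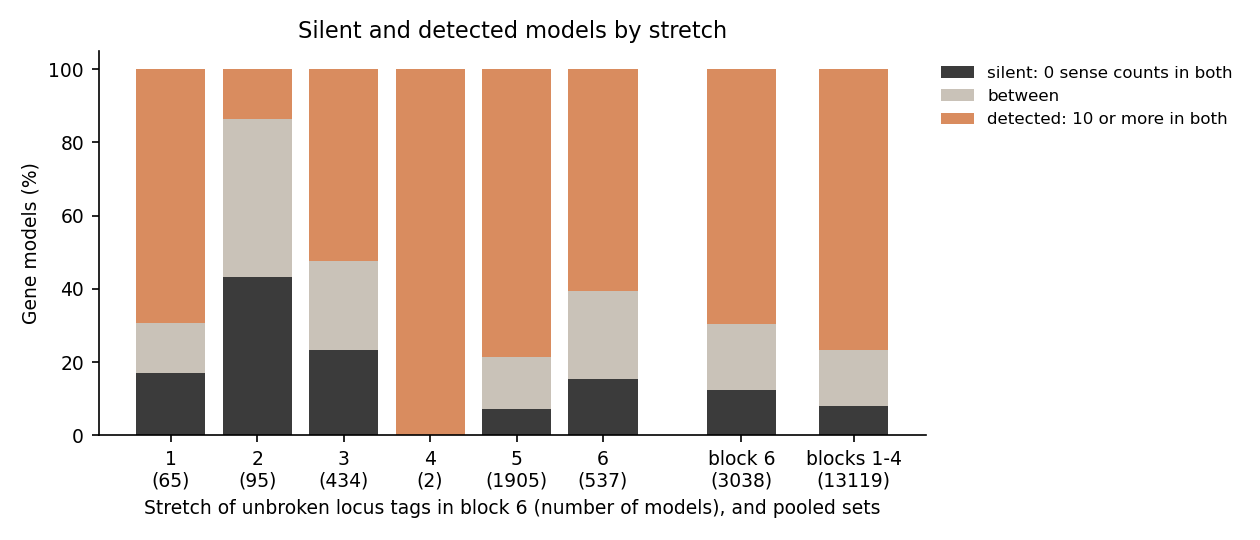
Percent of gene models (vertical axis) that were silent, detected or between these in each of the 6 stretches of block 6, in block 6 and in blocks 1 to 4 pooled (horizontal axis, numbers of models in brackets). Stretch 2 has the smallest detected part (13.7%), and stretch 5, with 78.7%, lies close to blocks 1 to 4 with 76.6%.

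The short stretches were uneven inside. Stretch 1 runs from ACLKA7_000137, with no sense count in either library, to ACLKA7_000201. All 45 of its detected models lay from ACLKA7_000148 to ACLKA7_000197, and the 11 models before them and the 4 after them were not detected. In tag number the stretch lies between stretches of block 7 with 2 of 79 and 0 of 26 models detected. Stretch 2 changed along its length. Its first 55 models, up to ACLKA7_000978, summed to 38 sense counts in replicate 1 and 48 in replicate 2, and 29 of them were silent. The 40 models from ACLKA7_000979 on held all 13 detected models and summed to 4370 and 2178 counts. Most of these counts came from ACLKA7_000989, with 1521 counts in replicate 1 and 752 in replicate 2, ACLKA7_001011, with 917 and 687, and ACLKA7_000998, with 860 and 212. The last model of the block, ACLKA7_012109, had 160 counts in replicate 1 and 77 in replicate 2.

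Models called silent had no sense count in either library. Block 6 had 374 of them (12.3%), against 1033 (7.87%) in blocks 1 to 4, where the single blocks ranged over 6.69% to 8.66%. A further 422 models of block 6 (13.9%) had some sense count but fewer than 10 in each library, against 1521 (11.6%) in blocks 1 to 4. Over all models, block 7 included, 13.1% were silent and 13.8% had such low counts. Stretch 5 had 138 silent models (7.24%), which was not above the 7.47% of the longest stretches of blocks 1 to 4. The silent share was 43.2% in stretch 2, 23.3% in stretch 3, 16.9% in stretch 1 and 15.5% in stretch 6. Together the 5 shorter stretches had 236 silent models (20.8%), against 13.0% in the shorter stretches of blocks 1 to 4.

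Along the block, silent models were most frequent in its first part and again in parts of stretch 6. Of 30 bins of 100 successive models, 6 had more than 20% silent models (bins 1, 2, 3, 5, 26 and 29), against 3 of 129 bins in blocks 1 to 4. The shorter last bins were left out of these numbers, among them the last 28 models of block 4, of which 21 (75%) were silent. The highest share in a bin of block 6 was 32% in the first bin, from ACLKA7_000137 to ACLKA7_000958. The lowest was 0 of 100 in the eighth bin, from ACLKA7_005796 to ACLKA7_005895, where 91% of models were detected. That bin had a median of 21.4 CPM in replicate 1 and 12.5 CPM in replicate 2. The ends of stretch 5 also stood low, with 7 of the first 20 and 3 of the last 20 models detected, against 79.8% between them. Low ends occurred elsewhere as well. In the longest stretches of blocks 1 to 4, between 2 and 8 of the first 20 models were detected, and between 0 and 20 of the last 20.

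**Figure D3:**
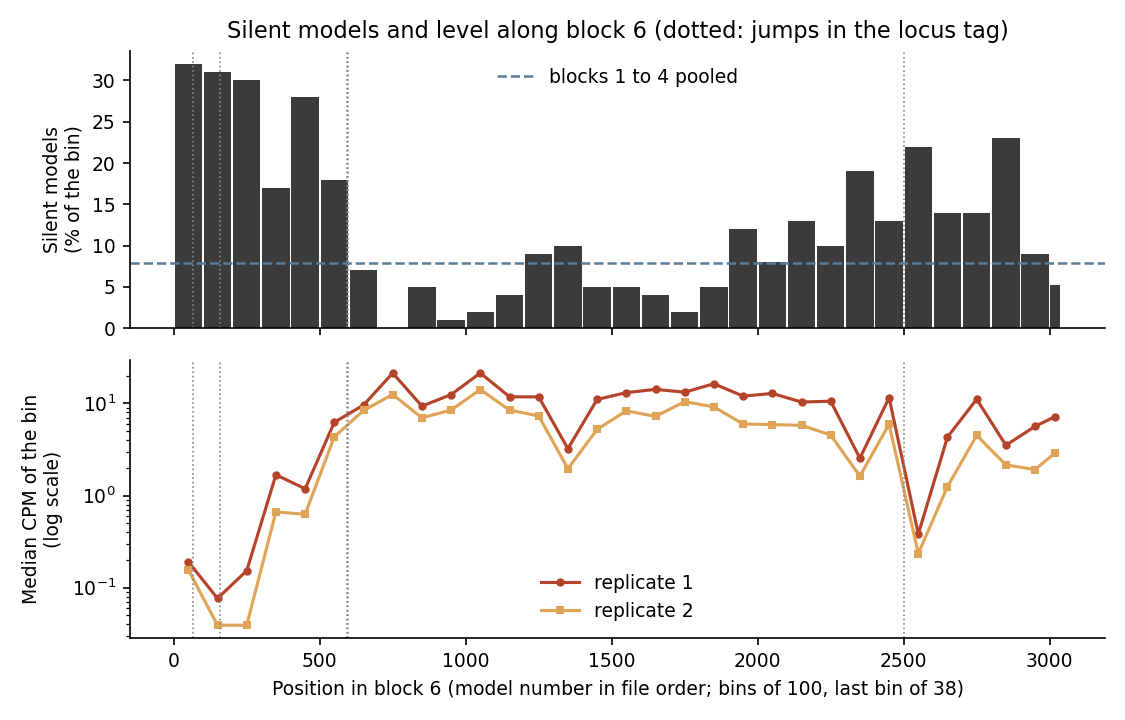
Silent models as percent of each bin (upper panel) and median CPM of each bin in replicates 1 and 2 on a log axis (lower panel) against position in block 6, in bins of 100 models in file order, the last of 38. Dotted lines mark the jumps in tag number; the first 5 bins and bin 26 have medians below 2 CPM in both libraries, and most bins of stretch 5 lie below the silent share of blocks 1 to 4 (dashed).

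Runs of silent models were short. The 374 silent models of block 6 fell into 255 runs, of which 183 were single models, and 27.0% of the silent models lay in runs of 3 or more, against 19.2% in blocks 1 to 4. The next model in file order was silent for 31.8% of silent models in block 6 and for 27.1% in blocks 1 to 4. Within block 6 this share was 39.0% in stretch 2 and 39.6% in stretch 3, and higher still in stretch 1 with its 11 silent models. In stretches 5 and 6 it was 27.0% and 25.3%, not above blocks 1 to 4. The silent shares of stretches 2, 3, 5 and 6 themselves were 43.2%, 23.3%, 7.24% and 15.5%. In stretch 2, then, silent models did not have silent neighbours more often than its average model. The shares of the whole sets stand beside overall silent shares of 12.3% and 7.87%, so silent models had silent neighbours more often than the average model in both sets. The value of block 6 pools stretches of unequal silent share. The longest run in block 6 had 7 models, against longest runs of 4, 7, 6 and 16 in blocks 1, 2, 3 and 4. Judged on replicate 1 alone, without replicate 2, it had 13 models in block 6, against 7, 7, 7 and 16. On replicate 2 alone it had 9 models in block 6, against 15, 7, 7 and 17. Runs of 5 or more numbered 5 in block 6 and 6 in blocks 1 to 4, and held 7.49% and 4.26% of the silent models.

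The run of 7 extended from ACLKA7_005694 to ACLKA7_005700, near the start of stretch 5. Its neighbours ACLKA7_005693 and ACLKA7_005701 had 1 sense count each over both libraries. A run of 6, from ACLKA7_006357 to ACLKA7_006362, lay inside stretch 5, again between models with 1 sense count each. There were 3 runs of 5, of which the first in file order, from ACLKA7_000942 to ACLKA7_000946, lay in stretch 2. The second, from ACLKA7_001545 to ACLKA7_001549, was followed by ACLKA7_001550 with 194 counts in replicate 1 and 119 in replicate 2. The third, from ACLKA7_007592 to ACLKA7_007596, closed stretch 5. Antisense counts over any of these 5 runs were at most 4 in a library.

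With the looser criterion of fewer than 10 sense counts in each library, the longest run of block 6 had 59 models, against 44 in blocks 1 to 4. It joined the last 4 models of stretch 1 to the first 55 of stretch 2 over a jump in tag number. Runs of 10 or more such models numbered 9 among the 3038 models of block 6 and 13 among the 13119 of blocks 1 to 4. Of the 9, 5 lay in stretch 3. The longest runs of detected models in block 6 had 41 members, from ACLKA7_005844 to ACLKA7_005884 and from ACLKA7_006541 to ACLKA7_006581. In blocks 1 to 4 the longest had 70.

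**Figure D4:**
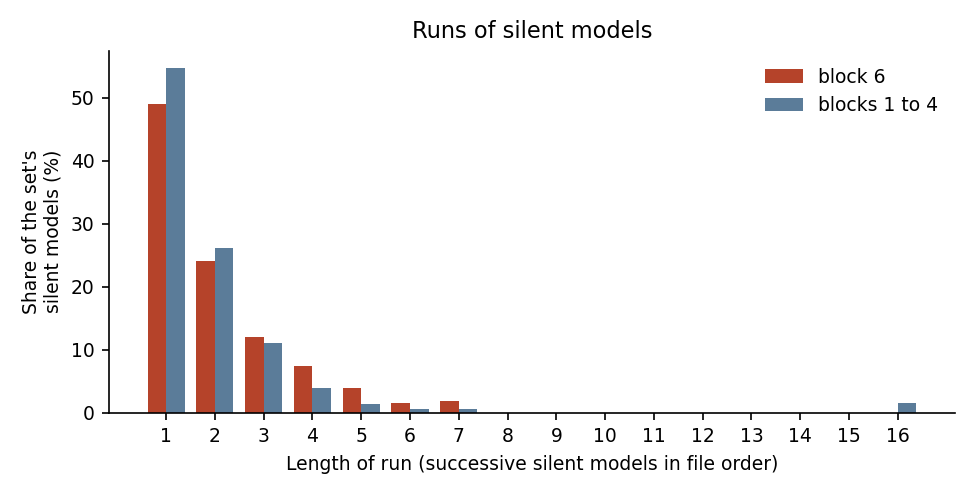
Share of each set's silent models (vertical axis, percent) by the length of the run they belong to (horizontal axis, successive silent models in file order), for block 6 and blocks 1 to 4. Single models make up 48.9% in block 6 and 54.7% in blocks 1 to 4, and the longest runs have 7 and 16 models.

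The libraries were compared by the log2 ratio of replicate 1 to replicate 2, with the trimmed mean of M-values (TMM) setting the scale, over models with a mean of 10 CPM or more. Of block 6, 1277 models (42.0%) reached this level, against 6484 (49.4%) in blocks 1 to 4. Their median log2 ratio was 0.07 in block 6 (quartiles -0.58 and 0.79) and -0.10 in blocks 1 to 4 (-0.73 and 0.63). Relative to library totals, TMM shifted every log2 ratio by -0.52; with totals the medians were 0.59 and 0.42. Only the difference of the medians, 0.17, is free of the scale. It is small beside the spread of single models, since the SD of the log2 ratio was 1.03 in block 6 and 1.05 in blocks 1 to 4. The medians of the single blocks 1 to 4 ranged over -0.15 to 0.02, so that of block 6 lay above all 4, by 0.05 over the nearest.

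The difference depended on expression level. In models of 10 to 100 CPM the median log2 ratio was 0.14 in block 6 and -0.04 in blocks 1 to 4. In those of 1 to 10 CPM it was 0.45 and 0.13. In models of 100 to 1000 CPM the order turned, with -0.42 in block 6 and -0.32 in blocks 1 to 4. In those of 1000 CPM or more the medians were -1.08 and -1.11, and the models of that class were mostly higher in replicate 2 in both sets. With TMM this held for 21 of 23 in block 6 (91.3%) and 136 of 151 in blocks 1 to 4 (90.1%), and with library totals for 18 (78.3%) and 122 (80.8%). Limited to the longest stretches, the medians of models of 1 to 10 CPM differed by 0.19, against 0.32 over all stretches. Those of 10 to 100 CPM differed by 0.16 and those of 100 to 1000 CPM by -0.01.

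At least 2-fold differences between the libraries were about as frequent in block 6 as in the whole annotation. They occurred in 417 of 1277 models of block 6 (32.7%), against 32.1% of all 7826 models of this level and 31.9% in blocks 1 to 4. Of these, 253 (19.8%) were higher in replicate 1, against 16.8% of all models, and 164 (12.8%) were higher in replicate 2, against 15.3% of all models. Blocks 1 to 4 had 16.0% and 15.9%. The split between the directions depends on the scale: with library totals it was 443 against 41 in block 6 and 1935 against 344 in blocks 1 to 4. With 1 library on each side, none of these ratios has a replicate check.

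**Figure D5:**
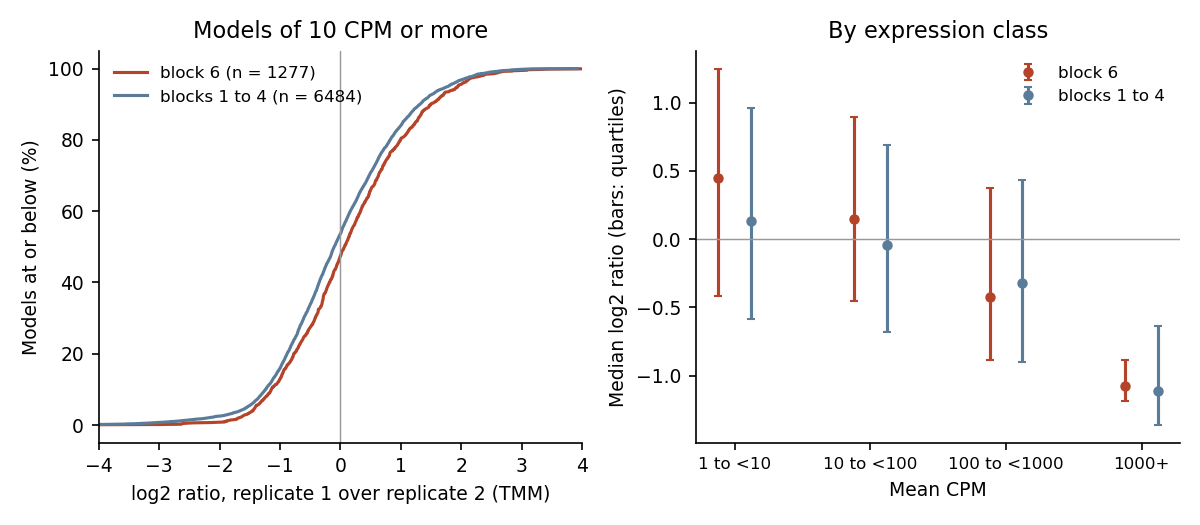
Left, cumulative percent of models (vertical axis) by log2 ratio of replicate 1 to replicate 2 with TMM (horizontal axis) for models of 10 CPM or more in block 6 and blocks 1 to 4; right, median log2 ratio with quartiles by class of mean CPM. The curve of block 6 lies to the right by 0.17 at the median, and the medians of both sets fall with level, to -1.08 and -1.11 at 1000 CPM or more.

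The largest ratio towards replicate 1 was that of ACLKA7_000181 in stretch 1, counted 1560 times in replicate 1 and 40 times in replicate 2. On the log2 scale this ratio was 4.73, with a 95% interval for counting error of 4.28 to 5.23. ACLKA7_006773 followed (799 and 35 counts, log2 ratio 3.96), ACLKA7_006347 had 930 and 59, ACLKA7_006598 had 515 and 35, and ACLKA7_007292 had 875 and 69. Towards replicate 2, ACLKA7_007498 stood apart, counted 41 times in replicate 1 and 663 times in replicate 2. Its log2 ratio was -4.57, with an interval of -5.06 to -4.11. The next was ACLKA7_007300 with 300 and 1617 counts and a log2 ratio of -2.98. ACLKA7_006620, ACLKA7_007027 and ACLKA7_005999 followed with log2 ratios from -2.64 to -2.62. Because the ratio itself selected them, a new pair of libraries would be expected to show smaller values.

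Ratios of 8-fold or more divided unequally. In block 6, 7 of 1277 models had 8-fold or more in favour of replicate 1 and 1 in favour of replicate 2. In blocks 1 to 4 there were 15 and 46 of 6484, and over all models of this level 22 and 47 of 7826. With library totals the numbers were 20 and 1 in block 6, against 65 and 21 in blocks 1 to 4. As a share of the models of this level, those 8-fold higher in replicate 2 with TMM made up 0.0783% of block 6 and between 0.317% and 1.01% of the single blocks 1 to 4. Those 8-fold higher in replicate 1 made up 0.548% of block 6 and between 0.195% and 0.272% of the single blocks 1 to 4. Successive models of this level with 2-fold ratios in the same direction formed runs of at most 5 in block 6. Such runs are not given here for blocks 1 to 4, so whether their length is unusual cannot be told. In either direction, 32.7% of the models of this level in block 6 and 32.1% of all were 2-fold apart. ACLKA7_001614 to ACLKA7_001623, in stretch 3, summed over their 5 models to 4143 counts in replicate 1 and 765 in replicate 2. ACLKA7_006034 to ACLKA7_006043 summed to 3046 and 5154 counts over 5 models.

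Antisense counts were fewer in block 6. They made up 0.581% of its strand-specific counts in replicate 1 (95% exact interval 0.574 to 0.589) and 0.495% in replicate 2 (0.488 to 0.503), against 0.867% and 0.888% in blocks 1 to 4. Without the models whose antisense counts exceeded their sense counts and reached 10 in both libraries, the shares were 0.489% and 0.428% in block 6, against 0.493% and 0.424% in blocks 1 to 4. Such models numbered 38 in block 6 (1.25%) and 201 in blocks 1 to 4 (1.53%). The most abundant in block 6 was ACLKA7_005733, with 662 antisense and 4 sense counts in replicate 1 and 474 and 5 in replicate 2. ACLKA7_007202 had 352 and 259 antisense counts in replicates 1 and 2, and ACLKA7_006037 had 183 and 306.

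Reads shared by models on opposite strands were rarer in block 6. Such reads are present in the strand-specific columns and missing from the unstranded column. At least 10 were missing in both libraries for 26 models of block 6 (0.856%), against 301 (2.29%) in blocks 1 to 4, where single blocks ranged over 1.76% to 2.82%. Over all models of block 6, such reads amounted to 0.0531% and 0.0441% of the strand-specific counts in replicates 1 and 2. In blocks 1 to 4 pooled they were 0.345% and 0.369%. The single blocks 1 to 4 ranged over 0.120% to 0.551% in replicate 1 and 0.113% to 0.536% in replicate 2. Most of the 26 were neighbours by tag, such as ACLKA7_007400 and ACLKA7_007401, which each lost 134 counts in replicate 1 and 60 in replicate 2.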

How the data were processed

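The authors deposited raw counts per gene model, 1 table per library. Reads were handled with fastp and STAR 2.7.11b, per the submitters' processing notes, and models were built with BRAKER 3.0.6, per the series description. Libraries used 1 µg of RNA and a directional poly(A) kit, per the labels' protocols. Trimming and alignment settings were not stated in what was used here. STAR count tables leave multimapping reads out of every model, so near-identical copies can be undercounted. The first 4 rows (unmapped, multimapping, unassigned and ambiguous reads, 38.3% of reads in replicate 1 and 41.2% in replicate 2) were left out of totals.

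The last count column was taken as sense. It had the larger sum, and the kit marks strand. CPM used the sense totals. TMM factors came from edgeR 4.0.16 and alternative size factors from DESeq2 1.42.0 in R 4.3.3; the rest was computed in Python 3.11.15 with pandas 2.3.3 and scipy 1.17.1. Ratios and runs were tested on simulated data. Intervals are exact (Clopper-Pearson). No test compared blocks or conditions. Named models were the first and last, the 10 of highest CPM, the 5 largest ratios each way, the 3 longest silent runs with neighbours, and the 3 strongest antisense models of 2 kinds, beside the bins highest and lowest in silent models. The runs tied at 5 models, models of the short stretches, and the runs of 2-fold models and shared reads were named after their values were seen. The block and these rules were chosen with earlier results of these data known.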

Additional observations from a re-analysis of the deposited data

Results flagged for a closer look

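Antisense counts, which enter no level given for block 6, were present in some models without sense counts. Of its 374 silent models, 14 (3.74%) had more than 3 antisense counts in both libraries, the limit that a count of 0 allows. At 10 or more in both libraries there were 10 (2.67%). In blocks 1 to 4 the corresponding numbers were 50 (4.84%) and 26 (2.52%) of 1033 silent models. ACLKA7_011575 had the most, reaching 121 in replicate 1 and 118 in replicate 2. ACLKA7_007029 had 82 and 97, and ACLKA7_007434 had 65 and 49. No antisense count was found in either library for 254 of the 374 (67.9%), against 67.3% in blocks 1 to 4.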

How the results depend on the processing

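Of 50 alternatives, 33 moved a value by less than the spread used for it, 15 moved it further and 2 turned its direction. The spread was the SD between replicates, the SD of the 4 block medians for the library ratio, and a factor of 1.5 for counts. Among the 33, 4 on the median level and the share of counts could not have moved further. Leaving out 1 of 2 libraries cannot move their mean by a whole SD. Nor could the number of detected models without either replicate, or at thresholds of 1 and 5 counts. It can only rise there, and 1.5 times the 2112 detected models exceeds the 3038 models of the block. All these settings say nothing of stability. Against blocks 1 to 4, the longest stretches alone gave a silent share lower by 0.22 percentage points (-0.222) where all stretches gave 4.44 higher. They gave a ratio of median levels of 0.967 in place of 0.640. These comparisons were chosen after seeing the data, as were those without stretch 2 (3.44 percentage points) and over detected models (a level ratio of 0.847). The difference in median library ratio was -0.048 at 100 CPM or more, 0.043 without a filter on log2(CPM + 1) and 0.052 against block 3 alone. The median level was 13.7 CPM over detected models, and the share of counts 14.9% without the 100 most abundant models. Silent models numbered 637 at up to 3 counts and 796 below 10, with longest runs of 15 and 59 models (55 within a stretch). Models 2-fold apart numbered 737 at 1 CPM or more and 52 at 100 or more. Without replicate 1 or without replicate 2, the longest silent run was 9 to 13, silent models 457 to 531, detected models 2127 to 2227, the median level 4.11 to 7.69 CPM and the share of counts 13.5% to 14.0%. Where a setting counts fewer samples or other models, the number moves by construction; otherwise the cause was not tested. No paired analysis was possible because the series has 1 group. Depth limits the silent calls to fewer than about 3 counts per library.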

Other observations

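Library ratios of neighbouring models were nearly uncorrelated in block 6. Over 513 pairs of adjacent tags at 10 CPM or more without shared reads, Pearson's r between the log2 ratios of the members was -0.01 (Spearman 0.00) in block 6. In each of blocks 1 to 4 it was between 0.19 and 0.21 (Spearman 0.11 to 0.16), over 571 to 716 pairs. Without models 8-fold apart it was 0.00 in block 6, and 0.09 to 0.19 in blocks 1 to 4. Adjacent models deviated to the same side of their set's median in 50.1% of pairs in block 6 and in 54.6% in blocks 1 to 4, where block 4 had 52.0% and blocks 1 to 3 had 54.1% to 55.2%. Pairs overlap in their members and all come from the same 2 libraries, so these values are descriptions and the difference was not tested.

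Models at 10 or more counts in replicate 1 alone numbered 115 in block 6 (3.79%) and 381 in blocks 1 to 4 (2.90%), against 2.91% of all models. Those at 10 or more in replicate 2 alone numbered 15 (0.494%) and 130 (0.991%), against 0.835% of all models. Models with no count in replicate 2 and at least 10 in replicate 1 numbered 9 in block 6 (0.296%) and 25 in blocks 1 to 4 (0.191%). The other way there were 0 in block 6 and 10 in blocks 1 to 4 (0.0762%).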
